A study of Rattus norvegicus with 4 samples.

Results

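The circadian clock and clock output genes described here are 10 genes chosen by name: Dbp, Tef, Per1, Per2, Per3, Cry1, Nr1d1, Nr1d2, Bmal1 and Clock. They were found by symbol in the array annotation. Of the 10, 7 genes had a feature, 10 features in all, out of 9653 named genes and 20500 features on the array. The genes Cry1, Nr1d1 and Nr1d2 had no annotated feature and were not analysed here. A feature was kept if its normalized intensity exceeded 214.9 units on at least 1 array. This held for 6 of the 10 features, which belong to 5 genes, Dbp, Tef, Per1, Per2 and Per3. Bmal1 and Clock did not pass, and their values are given as readings of dim features. The set was proposed with earlier results of these arrays known, among them the difference of Dbp between the MNU arrays. The differences between pairs of arrays below are therefore descriptions without a test, and nothing is read from the members' p-values in the model across all genes given after them.

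Total RNA of the mammary gland of Lewis rats was measured on 4 arrays, 1 for each of 4 groups of 5 animals. The parous rats had delivered at 87 days, suckled their young for 21 days until these were taken away at 108 days, and then went through 28 days of involution, in which the gland regresses. Their glands were taken at 136 days, as were those of virgin rats of the same age. The other parous and virgin groups received N-methyl-N-nitrosourea (MNU), an alkylating mammary carcinogen, at 50 mg/kg into the peritoneum and had their glands taken at 157 days, after a further 3 weeks. MNU and 3 weeks of age, which for parous rats are also 3 more weeks without a litter, cannot be told apart. The labels name neither pooling of the 5 animals nor the hour of the day at which tissue was taken, and the part of that hour in the values below was not tested. A difference within a pair of arrays has no replicate check, and precision is limited by having 4 arrays. Median deposited intensities differed by at most 1.33 times and were lowest on the parous MNU array, which also had the most blank features, 795 against 390 to 666 on the others. In whole gland RNA, fewer cells of a type and less RNA per cell cannot be told apart.

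The clock of mammalian cells is a feedback loop. BMAL1 and CLOCK bind E-box sequences and activate the Per and Cry genes, whose proteins repress BMAL1 and CLOCK, and the Nr1d genes, which encode REV-ERB proteins that repress Bmal1 through ROR elements. DBP and TEF are transcription factors of the PAR bZIP family, driven by the clock, that activate genes carrying D-box sequences. In rat and mouse tissues the transcripts of Dbp and Bmal1 peak at nearly opposite times of the day. A difference in the time of sampling can therefore move them in opposite directions. The comparison asked here was whether the limbs of the clock shifted at once, and in the same or in opposite directions.

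The sequences upstream of Dbp and Tef are shown because these genes had the largest differences among the members, and that of Per2 because its promoter holds 2 kinds of clock motif. The windows are the 250 bases before each gene's start, from RefSeq on the rat build GRCr8. Capitals mark matches to an E-box (CACGTG), its variant CACGTT, a D-box (TTATGNAA) or the core of a ROR element (AGGTCA), each searched on both strands.
Dbp, chr1:105312006-105312255, plus strand: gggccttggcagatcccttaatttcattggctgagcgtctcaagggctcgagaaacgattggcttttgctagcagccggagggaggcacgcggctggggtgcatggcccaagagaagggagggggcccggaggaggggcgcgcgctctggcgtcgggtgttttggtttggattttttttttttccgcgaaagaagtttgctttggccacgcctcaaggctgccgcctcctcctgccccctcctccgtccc
Tef, chr7:115206577-115206826, plus strand: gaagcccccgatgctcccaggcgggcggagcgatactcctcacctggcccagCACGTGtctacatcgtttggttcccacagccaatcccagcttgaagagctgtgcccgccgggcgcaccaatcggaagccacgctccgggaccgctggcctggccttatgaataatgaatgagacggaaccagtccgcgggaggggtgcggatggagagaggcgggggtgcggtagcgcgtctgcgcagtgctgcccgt
Per2, chr9:99496994-99497243, minus strand: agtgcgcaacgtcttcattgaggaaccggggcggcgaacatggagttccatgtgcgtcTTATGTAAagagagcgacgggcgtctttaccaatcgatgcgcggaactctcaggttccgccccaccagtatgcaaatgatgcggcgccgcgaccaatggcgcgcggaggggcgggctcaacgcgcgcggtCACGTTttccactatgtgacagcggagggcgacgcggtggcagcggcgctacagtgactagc
The Tef window holds CACGTG at position -198 from the gene's start. The Per2 window holds TTATGTAA at -192 and CACGTT at -62. None of the searched motifs is in the Dbp window. RefSeq gave windows for 9 of the 10 genes, 11 windows in all, with Cry1 not matched. CACGTG was in 2 of these 11, of Tef and Nr1d1, and in 5.59% of all 33469 windows. CACGTT was in 2, of Per2 and Nr1d1, against 4.07% of all windows, and TTATGNAA in 1, of Per2, against 3.28%. AGGTCA was in 2, of Bmal1 and Nr1d2, against 14.1%, and in Bmal1 it lay within the longer ROR element TAGGTCA at -16, which 2.26% of all windows hold. A match of these letters is a description and not a binding site.

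Among the output genes, Dbp differed most between the arrays. Dbp read 3016 normalized units on the parous, 2011 on the virgin, 2904 on the parous MNU and 956 on the virgin MNU array. The virgin MNU array stood lowest and both parous arrays stood highest and close together. As deposited, before normalization, the Dbp values were 3370, 2250, 2220 and 1000 units in the same order. Its feature ranked at the 98.1, 96.2, 98.5 and 90.3 percentile of all features on these arrays. Dbp is represented by 1 feature on the array, so no other feature of the gene is at hand for comparison.

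Tef, the PAR bZIP relative of Dbp, was also lowest on the virgin MNU array. Its brighter feature read 782.1 units on the parous, 720.3 on the virgin, 785.6 on the parous MNU and 486 on the virgin MNU array. On the other 3 arrays Tef thus stayed within a narrow range. Its other feature lay below the floor, the pooled 40th percentile of 176.9 units to which lower values were raised, on every array. That feature read 126.6 units on the virgin MNU array and 129.7, 140.5 and 162.3 units on the virgin, parous and parous MNU arrays. No change is read from it at that level.

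The Per genes, which encode the repressors of the loop, varied less. Per1 read 2110 units on the parous, 2261 on the virgin, 1925 on the parous MNU and 1836 on the virgin MNU array. Both untreated arrays were above both MNU arrays for Per1. A dimmer Per1 feature read 365.5, 356.3 and 374.6 units on the parous, parous MNU and virgin MNU arrays and was blank on the virgin array. In that feature the virgin MNU array was not the lowest. Per2 read 248.1 units on the parous, 241.5 on the virgin, 212.6 on the parous MNU and 184.1 on the virgin MNU array, the last just above the floor. The untreated arrays again stood above the MNU arrays, but Per2 exceeded the filter limit of 214.9 units only on the untreated arrays. Nothing is therefore read from that order. Per3 read 671.1, 678.7, 720.4 and 598.4 units on the parous, virgin, parous MNU and virgin MNU arrays. Its other feature stayed between 89 and 93.8 units on the 3 arrays with a value, far below the floor, so that the features of Per3 do not show the same brightness and no change can be read from the dim one.

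**Figure D1:**
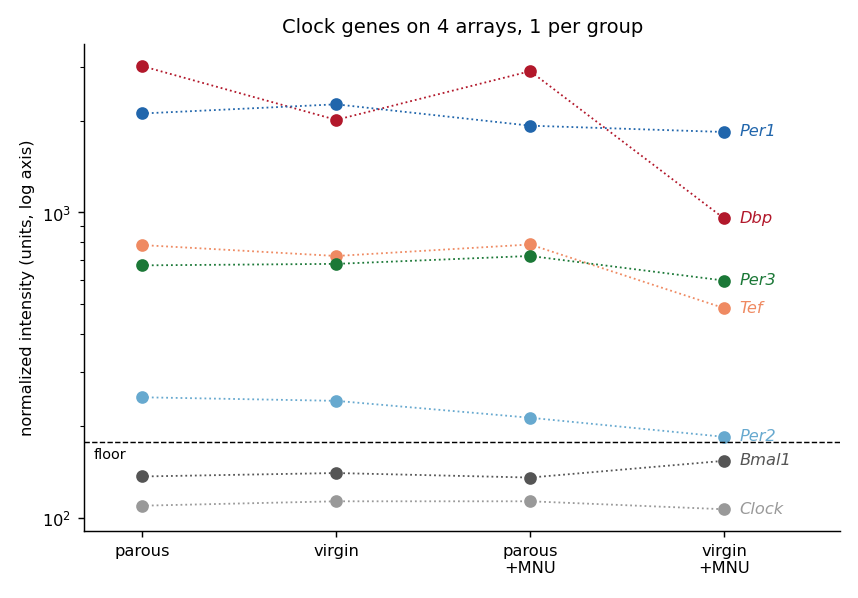
Normalized intensity in units (log axis) of the 5 kept clock genes and of the dim features of Bmal1 and Clock on the 4 arrays, 1 point per array, with dotted lines only to guide the eye. Dbp stands at 956 units on the virgin MNU array and between 2011 and 3016 on the others, while Bmal1 and Clock lie under the dashed floor of 176.9 units on every array.

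All 5 kept members had their lowest normalized value on the virgin MNU array, where 23.5% of the 5587 genes with complete values had theirs. As deposited, without scaling, this held for Dbp and Tef but not for Per1, Per2 and Per3, and 2.97% of genes were lowest there. With median centring it held for 4 members and not for Per1. Per2 passed the filter only through the untreated arrays. With every array above the filter limit, which drops Per2, all 4 members left were lowest there, as were 23.1% of 4935 genes. Nothing is read from these counts. The low Dbp value on the virgin MNU array is part of the difference that led to the choice of genes.

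The activating genes could not be followed. Bmal1 read 136.5, 140.1, 135.4 and 153.6 units on the parous, virgin, parous MNU and virgin MNU arrays. Clock, its binding partner, read 109.5, 113.2, 113.2 and 106.6 units. Every value lay below the floor, so no difference is given for either gene. The planned contrast between the output and Per genes on one side and Bmal1 and Clock on the other had no value, so whether the limbs shifted together or apart was not measured. Of the genes that act beside Bmal1 and Clock, Npas2, which encodes a partner of BMAL1 able to take the place of CLOCK, was measured. Npas2 read 324.6, 360.7, 387 and 350.7 units on the parous, virgin, parous MNU and virgin MNU arrays. Its value on the virgin MNU array lay between those of the other arrays, and its difference there from the untreated virgin array was -0.04 on the log2 scale, against -1.07 for Dbp. Nfil3, a repressor that competes with DBP and TEF at D-boxes, did not pass the filter. It read 164.7, 197 and 148.9 units on the parous, virgin and parous MNU arrays and was blank on the virgin MNU array.

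Parous and virgin glands were compared first without carcinogen. Dbp was 1.5-fold higher in the parous gland, a log2 difference of 0.58. The robust SD (from the median absolute deviation) of the 500 genes nearest to Dbp in brightness was 0.166 in this pair. Tef differed by 0.12, Per1 by -0.10, Per2 by 0.04 and Per3 by -0.02, each within the corresponding spread of its 500 nearest genes of 0.137 to 0.167. The sign of Per2 turned to -0.04 as deposited. The median of the 5 members was 0.04, against -0.01 over all 5994 genes. None of the 5 was at least 2-fold higher, as 0.317% of genes were, or at least 2-fold lower, as 0.133% were. Dbp ranked 100 of 5994 by the size of its difference.

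After MNU, Dbp was 3.04-fold higher in the parous than in the virgin gland, a log2 difference of 1.60, and Tef was 1.62-fold higher with 0.69. Both lay outside the spread of genes of like brightness, with a robust SD of 0.202 for Dbp and 0.197 for Tef. Dbp ranked 4 and Tef 76 of 5686 genes by size. As deposited the differences of Dbp and Tef were 1.15 and 0.31, where all genes shifted by -0.36, so that relative to that shift they were 1.52 and 0.68. Per2 differed by 0.21 and Per3 by 0.27, which were -0.10 and -0.13 as deposited and 0.26 and 0.24 relative to the shift. Per1 differed by 0.07, but by -0.08 with median centring and by -0.38 as deposited. The median of the 5 members was 0.27, against -0.01 over all genes. At least 2-fold higher was 1 of the 5, Dbp, beside 0.158% of all genes. Nothing is read from this count, since the difference of Dbp in this pair was among the results that led to the choice of genes.

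MNU and untreated arrays were then compared in virgin glands. This pair shares an array with each of the parity pairs, so its values are not independent of those above. Dbp was 2.1-fold lower on the MNU array, a log2 difference of -1.07, and that of Tef was -0.57. Per2 differed by -0.39, Per1 by -0.30 and Per3 by -0.18, with robust SDs of 0.165, 0.209 and 0.185 among genes of like brightness, so that Per3 lay within that spread. All 5 members were below 0 under every scaling tried, as were 48.8% of the 5821 genes in the values reported. Per2 was kept through the untreated arrays alone, so nothing is read from its sign here. The median of the members was -0.39, against 0.00 over all genes. That median is the value of Per2 itself, so nothing is read from it either. Dbp alone was at least 2-fold lower, 1 of 5 members beside 0.103% of genes, and 0 of 5 were at least 2-fold higher, as 0.292% were. Nothing is read from the member counts in this pair. Its virgin MNU array also gave the Dbp difference that led to the choice of genes. The Dbp count is lost with quantile normalization over all values, where Dbp stood at -0.94.

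In parous glands the members differed little between the MNU and the untreated array. Dbp differed by -0.05 and Tef by 0.01, and Per1, Per2 and Per3 by -0.13, -0.22 and 0.10. For Dbp, Tef, Per1 and Per3 these values lay within the robust SD of 0.188 to 0.195 of the genes nearest in brightness, and Per2 lay just outside its 0.172. Nothing is read from that value of Per2, which was kept through the untreated arrays alone. Every sign except that of Per2 turned under at least 1 other scaling. The median was -0.05, against 0.00 over all 5792 genes, and 0 of the 5 were at least 2-fold higher or lower, as 0.0345% and 0.0518% of genes were. The MNU difference in parous glands minus that in virgin glands was 1.02 for Dbp and 0.57 for Tef, ranks 23 and 195 of 5587 by size, and 0.17, 0.17 and 0.28 for Per1, Per2 and Per3. With 1 array per group no residual spread remains for this value, so it was not tested.

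**Figure D2:**
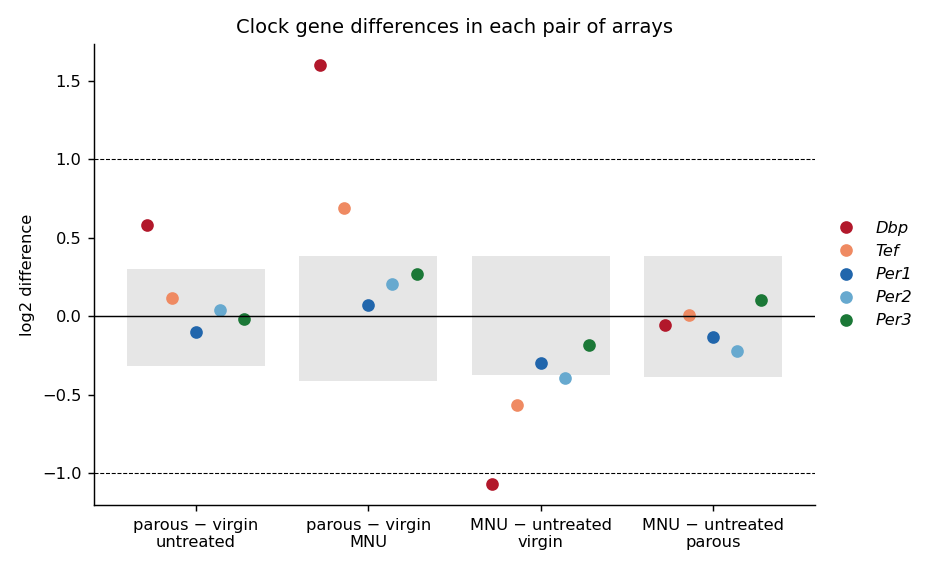
Log2 difference of the 5 kept clock genes (coloured points) in the 4 pairs of arrays, with grey bars for the median of all genes ± 2 robust SDs and dashed lines at 2-fold. Dbp lies outside the bars in 3 of the pairs and Tef in both pairs that hold the virgin MNU array, Per2 at -0.39 lies just outside in virgin glands, and in parous glands all 5 points lie within the bar. Per2 passed the filter only through the untreated arrays.

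Both pairs of each kind were also combined in a limma model across 5587 genes, with parity and MNU as additive terms and 1 residual degree of freedom per gene. For parity the mean log2 difference was 1.09 ± 0.18 (moderated SE, 2 arrays per state) for Dbp, 0.41 ± 0.14 for Tef, 0.13 ± 0.12 for Per3, 0.12 ± 0.11 for Per2 and -0.02 ± 0.11 for Per1. A moderated SE leans on a prior from all genes, here with 11.22 degrees of freedom, and is not the gene's own spread. For Dbp the parity pairs themselves gave 0.58 and 1.60, and for Tef 0.12 and 0.69. The means of Per2 and Per3 were below 0 as deposited, and that of Per1 was above 0 with quantile normalization over all values. By limma's adjusted p, 1 of the 5 members, Dbp, was called for parity, beside 1.24% of all genes. Nothing is read from this call, since the parity term averages the MNU pair that led to the choice of genes with the untreated pair. That call was lost without a filter and with the mean of the features of each gene. For MNU the means were -0.56 ± 0.18 for Dbp, -0.28 ± 0.14 for Tef, -0.31 ± 0.11 for Per2, -0.22 ± 0.11 for Per1 and -0.04 ± 0.12 for Per3, whose sign turned with quantile normalization over all values. None of the 5 members was called for MNU by limma, beside 0.43% of all genes. An unadjusted limma p under 0.05 was found for 2 of them, Dbp and Per2, and for 714 of the 5587 genes. The MNU term uses the same arrays, so nothing is read from these p-values either. As deposited, with median centring and with every array above the filter limit, Dbp was called lower with MNU. The model averages both pairs, so a difference held by 1 array enters both means and the error.

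Other genes of the clock were taken from a list of 18. Of these, 10 had a feature and 4 were kept. Bhlhe40, which encodes a repressor at E-boxes, read 257.5, 224.1, 273.8 and 260.4 units on the parous, virgin, parous MNU and virgin MNU arrays. Timeless, a gene of replication forks related to the fly clock gene, read 220.5, 229.5, 217.1 and 263.3 units. Csnk1d, the kinase that phosphorylates PER proteins, read 222.4, 253.1, 254.8 and 249.1 units. With Npas2 the list had medians of -0.10 and 0.05 for parity without and with MNU, and of 0.09 and 0.14 for MNU in virgin and parous glands. In virgin glands 2 of the 4 were above and 2 below 0 with MNU, beside 50.9% and 48.8% of all genes. In limma 0 of 4 was called for either term, beside 1.24% and 0.43% of genes. Cry2, Rorb, Csnk1e, Btrc and Gsk3b were dim like Nfil3, and Hlf, the remaining PAR bZIP gene, had no feature.

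Of 10 clock output genes 8 had a feature and 5 were kept. Noct, which encodes nocturnin, a phosphatase of NADP(H), ran opposite to Dbp in both parity pairs and between the virgin arrays. It read 252.5 units on the parous, 293.5 on the virgin, 243.6 on the parous MNU and 363.5 on the virgin MNU array, highest on the array where Dbp was lowest. Its log2 difference between parous and virgin glands was -0.22 without and -0.58 with MNU, and 0.31 between MNU and untreated virgin glands. Between MNU and untreated parous glands Noct and Dbp each differed by -0.05. Nampt, the gene of an enzyme of NAD synthesis, read 496.2, 388, 439.5 and 383.3 units and was higher on both parous arrays, by 0.36 and 0.20. Wee1, the kinase that restrains entry into mitosis, read 237, 188.2, 217.1 and 184.1 units and differed in the same way by 0.33 and 0.24. Por, the reductase that supplies electrons to cytochrome P450 enzymes, differed by 0.09 and 0.25, and Tfrc, the transferrin receptor gene, by 0.03 and 0.23. Wee1 passed the filter only through the parous arrays and Tfrc only through the parous MNU array. Nothing is therefore read from the parity differences of Wee1 and Tfrc. The median of the 5 was 0.09 without and 0.23 with MNU for parity, and -0.02 and -0.05 for MNU in virgin and parous glands. For parity 4 of 5 were above 0 in each pair, beside 47% and 47.1% of all genes. Wee1 and Tfrc are among these 4, and the median of 0.23 is the value of Tfrc itself. Nothing is therefore read from that count or from either parity median. In limma 0 of 5 was called for either term, beside 1.24% and 0.43% of genes.

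**Figure D3:**
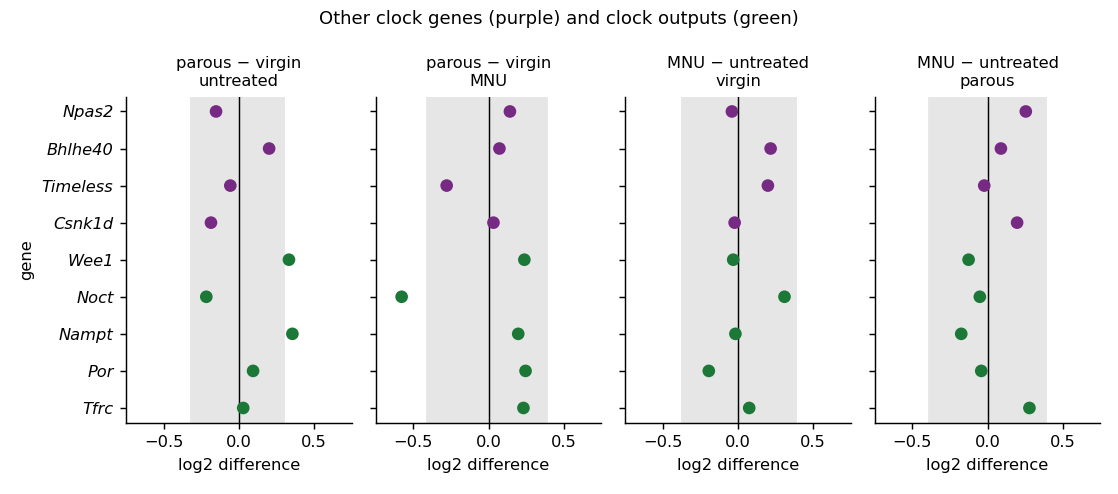
Log2 difference (horizontal axes) of the 4 other clock genes (purple) and the 5 clock outputs (green) kept, in each of the 4 pairs of arrays, with a grey band for the median of all genes ± 2 robust SDs. Noct at -0.58 between the MNU arrays lies outside the band, as do Wee1 at 0.33 and Nampt at 0.36 between the untreated arrays. Wee1 passed the filter only through the parous arrays and Tfrc only through the parous MNU array.

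Daily cues that set clocks in tissues include glucocorticoids and body temperature, and genes that respond to them were listed beside the members. Of 10 genes linked to glucocorticoids 7 were kept. Tsc22d3, the glucocorticoid-induced leucine zipper gene, read 1992 units on the parous, 1994 on the virgin, 1400 on the parous MNU and 1532 on the virgin MNU array. Errfi1, which encodes an inhibitor of EGF receptor kinases, read 1714, 1942, 1194 and 1283 units on the parous, virgin, parous MNU and virgin MNU arrays. The log2 differences between MNU and untreated arrays were -0.51 and -0.52 in parous glands and -0.38 and -0.60 in virgin glands, so that both genes stood lower on both MNU arrays. Klf9, a transcription factor gene, differed by 0.38 between the parous and virgin MNU arrays and Hsd11b1, which regenerates active glucocorticoid, by -0.47. The medians of the 7 were -0.03 and -0.10 for parity without and with MNU, and -0.09 and -0.22 for MNU in virgin and parous glands.

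Of 10 genes linked to temperature 9 were kept. Cirbp, a cold-inducible RNA binding protein whose transcript follows body temperature, read 318.1, 326, 317.7 and 313.7 units on the parous, virgin, parous MNU and virgin MNU arrays and so hardly differed. Hspa1a, an inducible heat shock protein gene, had a log2 difference of -0.41 between the virgin MNU and the virgin array. Hsp90aa1 differed by -0.38 and Hsph1 by -0.33 between the parous MNU and the parous array. Hspd1, a mitochondrial chaperonin gene, was higher on the virgin MNU array by 0.39. The list medians were -0.07, -0.20, -0.03 and -0.09 in the order of the pairs above. In limma 0 of 7 glucocorticoid and 0 of 6 temperature genes with complete values were called for either term, beside 1.24% and 0.43% of genes.

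Markers of the gland's cells were present. Luminal epithelium had 5 of 8 markers kept (Krt19, Epcam, Cd24, Cldn3 and Cldn7), whose summed level was 17882 units on the parous, 15640 on the virgin, 15184 on the parous MNU and 12675 on the virgin MNU array. All 5 were below 0 in virgin glands with MNU, with a median of -0.15, where 48.8% of all genes were below 0. Basal epithelium had Krt5 and Krt14, which summed to 1675, 1611, 1621 and 1809 units on the same arrays. Adipocyte markers kept were 5 of 7, and the 4 with complete values summed to 3582, 4286, 4190 and 4692 units on the same arrays, while Adipoq was blank on all 4. Of the proliferation markers 4 of 6 were kept. The 3 with complete values, Mki67, Cdk1 and Ube2c, summed to 1999 units on the virgin MNU array and to 857 to 999 units on the others. None of the 5 myeloid markers was kept. Of the B and plasma cell markers 1 of 4 was kept, Jchain, the joining chain gene of secreted antibodies, which read 4730 units on the parous, 1058 on the virgin, 3873 on the parous MNU and 1079 on the virgin MNU array, and so stood high on both parous arrays. The T and NK cell markers, 4 of 5 kept, summed to 2307, 1724, 2459 and 1745 units in the same order, and were also higher on the parous arrays. Gzma, a granzyme gene, carried this with 1081, 488.4, 1134 and 563.7 units, while Cd3e and Cd8a were not higher on the untreated parous than on the virgin array. Cd8a passed the filter only through the virgin array, and Cd3e on every array except the untreated parous one. Endothelial markers with complete values summed to 2942 units on the virgin MNU array and to 3246 to 3521 on the others. Of the 4 fibroblast markers kept, the 2 with complete values, Col3a1 and Pdgfra, summed to 1328 to 1678 units, while Col1a2 and Dcn were blank on both MNU arrays. Both kept markers of fast muscle, Ckm and Actn3, summed to 465, 620, 520 and 756 units, higher on the virgin arrays. Ckm passed the filter only through the virgin MNU array, as did Lipe of the adipocyte markers. Dbp and the lymphoid sums were thus both higher on the parous arrays, but between the virgin arrays Dbp went from 2011 to 956 units while the T and NK sum went from 1724 to 1745 and Jchain from 1058 to 1079. The lowest Dbp and Tef values stood on the array with the lowest luminal and endothelial and the highest proliferation, basal, adipocyte and muscle sums. Nothing is read from the adipocyte and muscle sums there, since Lipe and Ckm were kept through that array alone. The part of these cells in the differences of Dbp and Tef was not tested.

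Genes with a profile most like that of Dbp over the 4 arrays were found by the Euclidean distance of centred log2 values among 5535 genes outside all lists. The nearest was Bcar3, an adaptor protein gene, at a distance of 0.63, with 757.7, 348.1, 806.6 and 294.2 units on the parous, virgin, parous MNU and virgin MNU arrays. Gpnmb, a membrane glycoprotein gene, followed at 0.66, Gabbr1, a GABA type B receptor gene, at 0.67, Hepacam2, a cell adhesion gene, at 0.69, and Dmkn, which encodes dermokine, at 0.69. Bcar3 differed between parous and virgin glands by 1.12 without and 1.46 with MNU, and by -0.24 with MNU in virgin glands. Gabbr1 read 274.7 units on the virgin MNU array against 482.1 to 518.9 on the others. Tef itself stood at a distance of 0.78 from Dbp, its range being smaller. With 4 arrays such likeness is a description alone.

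**Figure D4:**
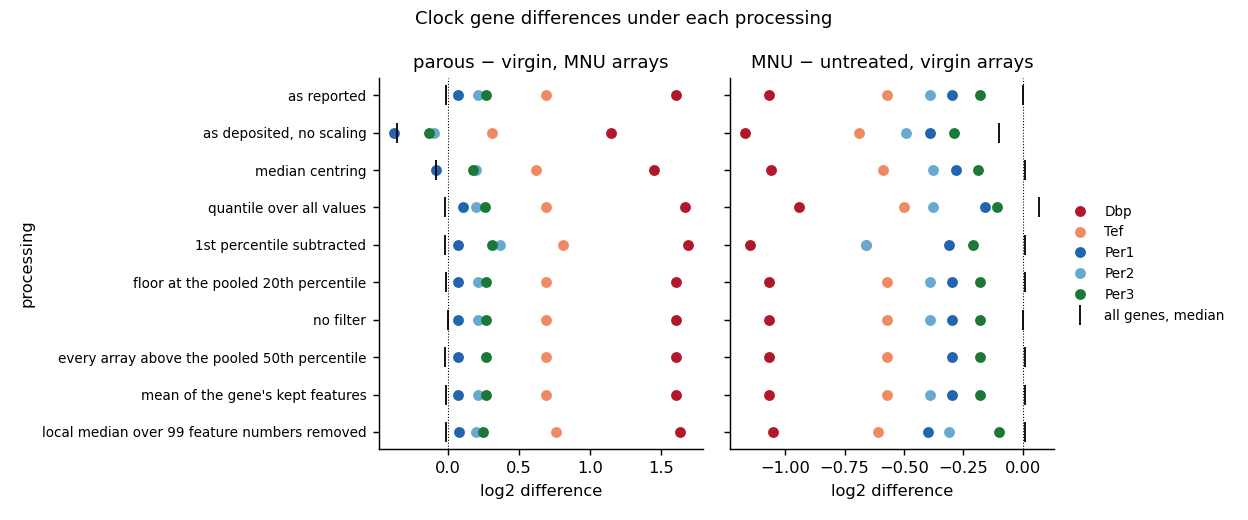
Log2 differences of the 5 kept clock genes (coloured points) and the median of all genes (black marks) under the reported processing and 9 others, for parous minus virgin on the MNU arrays (left) and MNU minus untreated in virgin glands (right). Dbp stays between 1.15 and 1.69 on the left and between -1.17 and -0.94 on the right, while Per1 on the left runs from -0.38 to 0.11.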

How the data were processed

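The deposited table holds intensity values on a linear scale for 4 arrays, positive and to 3 significant digits. The labels do not name the image software, the background handling or the meaning of blanks. The authors' deposited intensities had no common median, since medians differed by up to 1.33 times. Whether another scaling between arrays had been applied cannot be told from the medians. A single gene symbol was annotated for 12750 of the 20500 features, and 12720 of these found a current name (assembly GRCr8) through their gene identifier. The 7745 features with no symbol and the 5 with several were left out.

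Arrays were quantile normalized with a curve from features with a value on all 4, raised to a floor of 176.9 units, the pooled 40th percentile, and log2 transformed. Features above the pooled 50th percentile (214.9 units) on at least 1 array were kept, and the brightest of them stood for its gene, leaving 6187 genes, of which 5587 had complete values. Blanks were not filled in. Groups came from sample titles. Single pairs gave log2 differences without p-values. The additive model used limma 3.58.1 in R 4.3.3 with Benjamini-Hochberg adjustment at 0.05, whose p-values reflect only how these 4 arrays vary. Plots used matplotlib 3.10.9 under Python 3.11.15.

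The members and lists were chosen with earlier results of these data known. Named genes were every member, up to 3 genes per list and pair with the largest difference, and the 5 genes of nearest profile. The closing section gives the effect of 9 other settings of scaling, background, floor, filter, features per gene and limma prior, and of 1 added after seeing the data, which removed the median of the 99 features nearest in feature number.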

Additional observations from a re-analysis of the deposited data

Results flagged for a closer look

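Some effects had opposite signs in the paired states, each value coming from 1 array against 1, and none of these differences was tested. The MNU difference of Tef was 0.01 in parous and -0.57 in virgin glands. The MNU difference of Per3 was 0.10 in parous and -0.18 in virgin glands. The parity difference of Per3 was 0.27 with and -0.02 without MNU, and that of Per1 was 0.07 with and -0.10 without MNU. The robust SD of all genes was 0.155 to 0.199 in these pairs. The values of Per1 and the MNU values of Per3 lay within it, as did the 0.01 of Tef and the -0.02 of Per3. No effect thus lay outside that spread with opposite signs in both states.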

How the results depend on the processing

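No member at least 2-fold different changed sign under any alternative. Of 176 member values under alternatives 164 moved by less than the robust SD of all genes in that pair and 12 by more. The median of the 5 members became -0.10 as deposited and, over the 4 members left without Per2, 0.48 with every array above the filter limit for parity with MNU, -0.66 with the 1st percentile subtracted for MNU in virgin glands, and -0.55 as deposited for MNU in parous glands. As deposited, all genes shifted by -0.36 in the former and -0.40 in the last of these pairs. Counts of 2-fold genes moved as follows. The 27 for parity without MNU became 43 with the 1st percentile subtracted. The 24 with MNU became 67 as deposited, 45 with that subtraction and 15 with the strict filter. The 23 for MNU in virgin glands became 57 and the 5 in parous glands 13 with the subtraction, and the latter 44 as deposited and 2 with the strict filter. Splits of higher and lower genes moved with scaling, from 19 and 8 to 19 and 4 with quantile over all values, from 9 and 15 to 5 and 62 as deposited and 6 and 18 with centring, from 17 and 6 to 14 and 9 as deposited, and from 2 and 3 to 1 and 43 as deposited and 1 and 4 with centring. The 69 limma calls for parity (42 higher, 27 lower) became 112 with centring (55 and 57), 148 with the strict filter, 45 with the mean of features and 0 without a filter, where 736 genes had an unadjusted p under 0.05, and 48 (13 and 35) as deposited. The 24 for MNU (10 higher, 14 lower) became 70 as deposited (4 and 66), 106 with centring (30 and 76), 91 with quantile over all values (67 and 24), 12 with the subtraction, 11 with the lower floor, 119 with the strict filter, 3 with the mean of features and 0 without a filter, where 832 genes had an unadjusted p under 0.05. The causes were not tested. The limb contrast was not calculated under any setting. Bmal1 and Clock did not pass the filter in the reported processing, and without a filter both lay at the floor. No paired analysis was possible because the labels give no replicate numbers that join arrays across groups. The additive model already takes each factor within the states of the other. Low signal limits Per2, near the floor on the virgin MNU array, and all reading of Bmal1 and Clock.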
